A study of Mus musculus with 19 samples.

Results

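The Hox genes of the homeobox clusters A to D were followed in mouse colon and colon tumours. Members were all genes whose symbol reads Hox, a cluster letter from a to d and a number, and 39 of the 32694 genes in the table met this, 11 in HoxA, 10 in HoxB, 9 in HoxC and 9 in HoxD. RNA was poly-A selected and read as single ends of 75 bases from 19 mice of 12 weeks of age. Apc/Tgif tumours were 7 single colon tumours from mice in which Villin-Cre, a recombinase driven in the gut epithelium and not in the stroma, removed 1 allele of Apc and both alleles of Tgif1 and of Tgif2. Apc tumours were 7 single colon tumours from mice in which the same Cre removed 1 allele of Apc alone. Wild-type colon came from 5 mice. Each tumour group held 3 females and 4 males, and wild-type colon 3 females and 2 males, and replicates 1 to 3 were female in every group. The comparisons ask how tumours differ from colon and what loss of Tgif1 and Tgif2 adds.

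Hox genes encode homeodomain transcription factors that give cells their position along the head-to-tail axis. Within a cluster they lie in the order of that axis: low-numbered genes act towards the head, and the 5′ genes with high numbers act towards the tail, in the hindgut and colon among other places. Adult gut keeps part of this code, with Hoxb13 and other high-numbered genes marking the distal colon. Pbx and Meis proteins bind DNA together with Hox proteins, Cdx factors and Wnt signals act upstream of Hox genes in the embryo, and Polycomb complexes keep the clusters silent where they are not used.

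The clusters lie on GRCm38, in the GENCODE annotation, on chromosome 6 for HoxA (minus strand), and at chr11:96194316-96368256 for HoxB, chr15:102921103-103036852 for HoxC and chr2:74668310-74765142 for HoxD (these 3 on the plus strand). RefSeq promoter windows, which run from 250 bases before to 50 bases after a transcript start, matched 22 of the 39 Hox genes with 24 windows. The windows below include those of Hoxd13, Hoxd12 and Hoxd10. Their RNA was within or above the wild-type range in some tumours and under 10% of its lowest value in others. Shown too are a neighbour without this split (Hoxd8) and the Hox gene whose values did not overlap between any of the groups (Hoxa9). All are 5′ to 3′ on the gene's strand in GRCm38.p6, with each CG dinucleotide in capitals. The Hoxd13 window is chr2:74667975-74668274, the Hoxd12 window chr2:74674763-74675062, the Hoxd10 window chr2:74691641-74691940, the Hoxd8 window chr2:74704365-74704664 (plus strand) and the Hoxa9 window chr6:52227321-52227620 (minus strand).
Hoxd13: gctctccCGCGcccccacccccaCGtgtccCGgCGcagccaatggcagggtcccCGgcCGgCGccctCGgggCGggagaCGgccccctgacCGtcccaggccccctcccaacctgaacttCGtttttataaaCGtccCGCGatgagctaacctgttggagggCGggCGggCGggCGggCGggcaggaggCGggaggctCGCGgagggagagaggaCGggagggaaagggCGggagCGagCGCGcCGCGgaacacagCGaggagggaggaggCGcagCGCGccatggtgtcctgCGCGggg
Hoxd12: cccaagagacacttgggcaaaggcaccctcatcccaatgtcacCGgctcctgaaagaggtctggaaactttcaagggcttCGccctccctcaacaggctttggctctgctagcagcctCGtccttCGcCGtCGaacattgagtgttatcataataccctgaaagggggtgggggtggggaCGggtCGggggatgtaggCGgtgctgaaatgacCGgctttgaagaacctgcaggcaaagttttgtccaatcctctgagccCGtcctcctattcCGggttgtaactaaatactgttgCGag
Hoxd10: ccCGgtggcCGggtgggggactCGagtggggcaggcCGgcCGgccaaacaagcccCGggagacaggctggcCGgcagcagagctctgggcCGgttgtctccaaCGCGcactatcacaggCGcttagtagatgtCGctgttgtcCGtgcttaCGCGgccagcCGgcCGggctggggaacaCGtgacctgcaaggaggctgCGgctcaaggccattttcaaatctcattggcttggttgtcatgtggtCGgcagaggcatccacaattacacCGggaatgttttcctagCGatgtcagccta
Hoxd8: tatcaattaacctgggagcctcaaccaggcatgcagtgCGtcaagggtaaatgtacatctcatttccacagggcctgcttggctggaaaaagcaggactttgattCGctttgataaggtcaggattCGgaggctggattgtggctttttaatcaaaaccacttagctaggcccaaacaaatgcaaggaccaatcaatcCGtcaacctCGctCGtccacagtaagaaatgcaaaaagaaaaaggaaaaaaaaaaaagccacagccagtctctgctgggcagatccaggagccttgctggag
Hoxa9: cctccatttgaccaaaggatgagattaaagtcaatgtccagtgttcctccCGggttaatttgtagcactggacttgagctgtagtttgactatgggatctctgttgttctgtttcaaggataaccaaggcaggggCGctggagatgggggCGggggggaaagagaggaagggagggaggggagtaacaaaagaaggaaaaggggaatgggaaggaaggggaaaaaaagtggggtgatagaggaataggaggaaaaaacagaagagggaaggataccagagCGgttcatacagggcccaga
Of the windows shown, that of Hoxd13 held 37 CG dinucleotides, that of Hoxd10 22, that of Hoxd12 13, that of Hoxd8 6 and that of Hoxa9 4. Hoxd11, which showed the split too, had 2 windows with 4 and 25 CG dinucleotides, and of the HoxD genes farther to the head side Hoxd9 had 20, Hoxd4 4, Hoxd3 20 and Hoxd1 29. CG number thus did not separate the genes that showed the split from the others. The median over the 24 Hox windows was 14.5 CG dinucleotides, and that over all 32851 windows was 7. GC content had a median of 57.7% over the Hox windows and 52.7% over all windows. The core site of Tgif proteins, CTGTCA on either strand, was found in 2 Hox windows (8.33%; Hoxa2 and Hoxa3) and in 19.2% of all windows, and a Cdx-like site, TTTATG on either strand, in 5 Hox windows (20.8%) and in 11.9% of all windows. A match is a description of the letters only.

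The libraries held totals of 34417808 to 44732717 normalized counts, the unit of all levels below. The tumours labelled Apc/Tgif averaged 354 ± 137 normalized counts of Tgif1 against 3815 ± 803 in Apc tumours (SD, n = 7 each), but 2657 ± 352 of Tgif2 against 642 ± 92.1 in Apc tumours. The labels do not name the deleted exons, so the whole-gene total of Tgif2 does not check the label, and directions for these tumours rest on it. A list of 10 smooth muscle genes summed to between 10320 and 19210 in Apc/Tgif tumours and 13460 and 23090 in Apc tumours, against 206700 to 307000 in wild-type colon. In both comparisons 10 of 10 genes were lower (100%, against 25.5% of all genes in Apc/Tgif tumours and 25.2% in Apc tumours). A list of 10 enteric neuron and glia genes summed to between 245 and 688 in Apc/Tgif tumours, 804 and 1774 in Apc tumours and 2791 and 5593 in wild-type colon. Against wild-type colon 10 of them were lower in Apc/Tgif tumours (100%, against 25.5% of all genes). In Apc tumours 9 were lower and 1 higher (90% and 10%, against 25.2% and 23.9%). A list of 10 epithelial genes summed to between 387000 and 507300 in Apc/Tgif tumours, 339800 and 662900 in Apc tumours and 573300 and 724100 in wild-type colon. Of these, 6 were lower and 1 higher in Apc/Tgif tumours than in colon (60% and 10%, against 25.5% and 24.8% of all genes). In Apc tumours 5 were lower and 1 higher (50% and 10%, against 25.2% and 23.9%). The muscle and neuron sums of tumours and colon did not overlap, nor did the epithelial sums of Apc/Tgif tumours and colon. The neuron sums of the tumour groups did not overlap either. The mean log2 level of the neuron and glia list did overlap between the tumour groups. It was 2.765 to 4.475 in Apc/Tgif tumours and 3.452 to 4.736 in Apc tumours. In bulk samples fewer cells of a type and less RNA per cell cannot be told apart. The part of these markers in the Hox differences was not tested.

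Of the 39 Hox genes, 29 reached 10 normalized counts in at least 5 libraries and were tested: 11 of HoxA, 9 of HoxB, 1 of HoxC and 8 of HoxD. A gene could pass through 1 group alone, so the 29 are not a sample of all members. Hoxc4 and Hoxd3 passed only through wild-type colon. The highest tumour values of Hoxc4 were 5.26 (Apc/Tgif) and 4.25 (Apc), and those of Hoxd3 3.97 and 14.96. That both were lower in tumours was thus close to fixed by the filter. The 10 genes not tested were Hoxb1, Hoxd1 and Hoxc5, Hoxc6 and Hoxc8 to Hoxc13. Hoxb1 reached at most 11.4 normalized counts, and Hoxd1 at most 1.08. Hoxc11 and Hoxc12 were listed at 0 in every library. The HoxC cluster was thus close to silent, with Hoxc4 its highest gene at 10.1 to 26.3 normalized counts in wild-type colon.

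**Figure D1:**
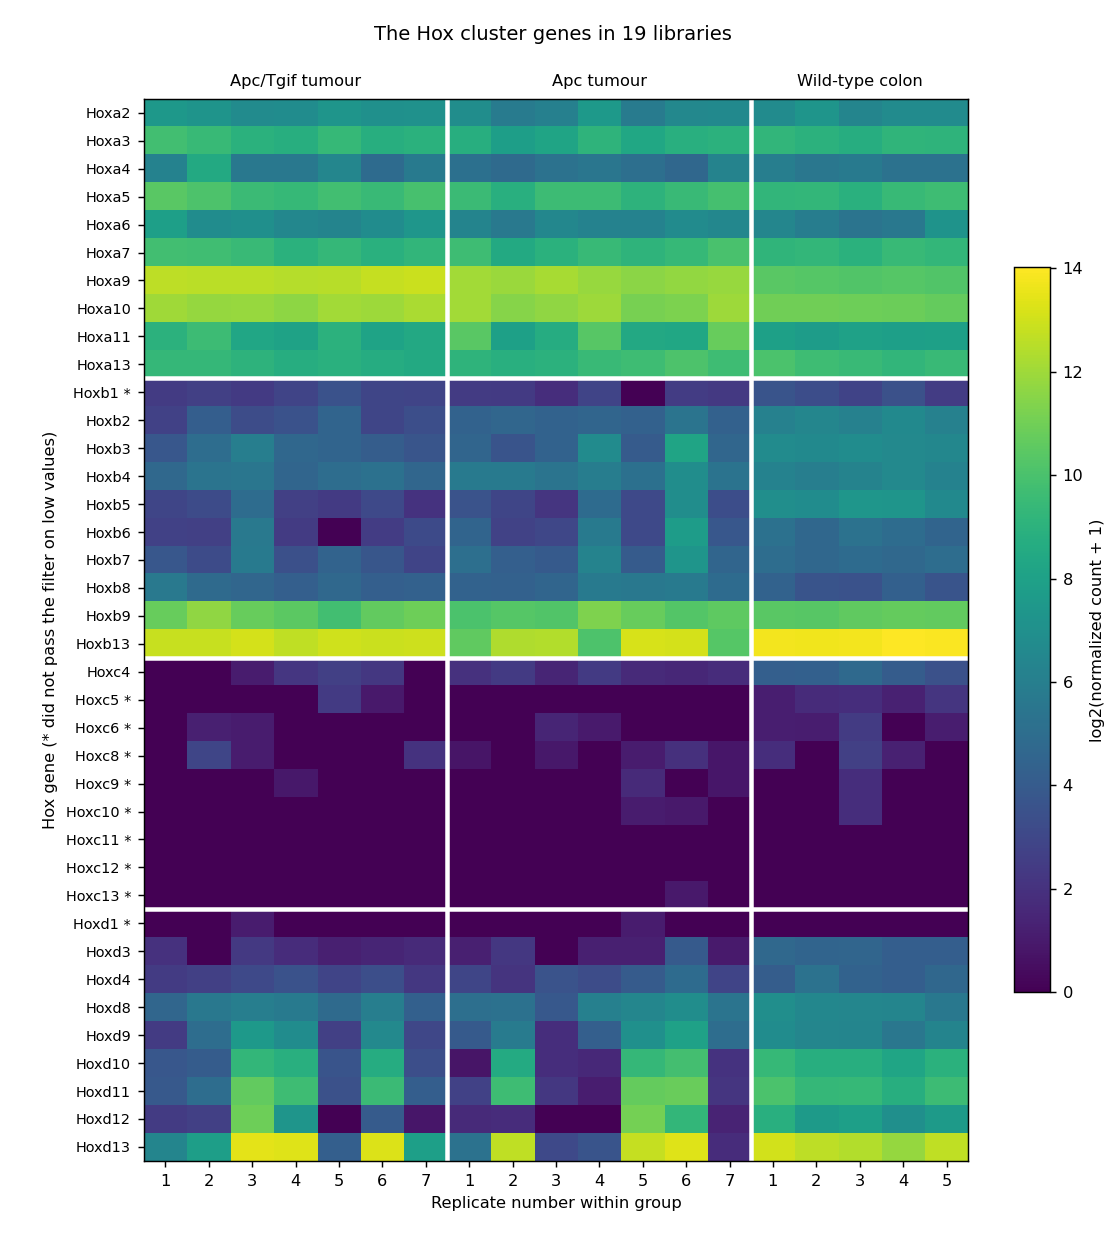
Levels of 38 Hox genes as log2(normalized count + 1), 1 column per library and 1 row per gene in cluster order, with an asterisk for the 10 genes that did not pass the filter on low values. HoxA is filled in every library, HoxC is nearly empty, and Hoxd10 to Hoxd13 are bright in some tumours and dark in others.

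Per kilobase of merged exon, Hoxb13 had the highest median in every group, and the genes after it differed between tumours and colon. In Apc/Tgif tumours the medians were 3508 normalized counts per kb for Hoxb13, 1900.3 for Hoxa9, 1280.0 for Hoxa10, 667 for Hoxb9 and 460.5 for Hoxa5. Apc tumours had 2389 for Hoxb13, 1163 for Hoxa9, 1068 for Hoxa10, 496 for Hoxb9 and 405 for Hoxa5. In wild-type colon Hoxb13 had 6318 normalized counts per kb, followed by Hoxd13 at 2530.0, Hoxa10 at 623, Hoxb9 at 606, Hoxd11 at 601 and Hoxa9 at 395. Hoxd13 was the 11th by this order in Apc/Tgif tumours, the 15th in Apc tumours and the 2nd in wild-type colon. Its tumour medians rest on a split of 4 low and 3 high tumours in each genotype, and by mean per kb it was the 3rd in Apc/Tgif tumours (1870.4) and the 2nd in Apc tumours (1387) and in wild-type colon (2434). Hoxb9, Hoxd11 and Hoxa10 in wild-type colon lay within their spread of one another.

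Apc/Tgif tumours differed from Apc tumours in few Hox genes. By limma, 2 of the 29 were higher, Hoxa9 among them, and 2 were lower, Hoxb2 and Hoxb4, at an adjusted p under 0.05. Of all 18445 genes tested, 7.88% were higher and 8.76% lower (16.6% in either direction), against 6.9% and 6.9% of the Hox genes, so neither share lay above the background. The median log2 fold change of the tested Hox genes was 0.05, and that of all genes was -0.01. By cluster it was 0.57 for the 11 HoxA genes, -0.73 for the 9 HoxB genes and 0.17 for the 8 HoxD genes. Of the 29, only Hoxa9 had groups that did not overlap, where 2.3% of all genes did not overlap on the higher side and 1.77% on the lower side.

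Hoxa9, a posterior HoxA gene known for its role in blood progenitors and leukaemia, had 5577, 6130.3 and 7638 normalized counts as the lowest, median and highest Apc/Tgif tumour, against 3011, 3751 and 4575 in Apc tumours. The wild-type libraries had 1369, 1279, 1200.2, 1276 and 1190.3. The ranges of the 3 groups stood apart, with wild-type colon lowest and Apc/Tgif tumours highest. Between the tumours the log2 fold change was 0.76 (SE 0.09, limma adjusted p = 2.98e-05). It lay between 0.55 and 0.91 and passed the threshold in all 32 alternative settings, females and males alone included.

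Hoxb2, which acts in the hindbrain of the embryo, had 5.43, 9.35 and 21.9 normalized counts as the lowest, median and highest Apc/Tgif tumour, against 19.4, 20.5 and 41.7 in Apc tumours. The groups overlapped in 1 Apc/Tgif tumour, replicate 5, and all values were near the depth at which single reads matter. The log2 fold change was -1.09 (SE 0.27, limma adjusted p = 0.00879), a call lost in females alone and in males alone (adjusted p up to 0.0818). Hoxb4, known for its role in blood stem cells, had 23.2, 31.3 and 43.8 in Apc/Tgif tumours and 35.7, 51.1 and 116 in Apc tumours, a log2 fold change of -0.73 (SE 0.24, limma adjusted p = 0.0461). Its groups overlapped, and the call was kept without Apc replicate 3, 5 or 7 or Apc/Tgif replicate 2 or 3 but lost without any other library, with adjusted p of up to 0.093. It was also lost in each sex alone (adjusted p up to 0.327). In the same comparison 2 of 10 enteric neuron and glia genes were lower (20%, median log2 fold change -0.59). Of 8 fibroblast genes 2 were lower (25%, median -0.51), and of 4 endothelial genes 1 (25%), against 8.76% of all genes. The neuron sums did not overlap, but the mean log2 levels of that list did. Of 8 blood and immune genes 2 were higher (25%, against 7.88% of all genes). Of 10 smooth muscle and 10 epithelial genes 0 were called. The part of these lists in the Hoxb2 and Hoxb4 differences was not tested.

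Against wild-type colon the tumours had higher Hoxa9 and Hoxa10 and lower levels of several HoxB and HoxD genes. Hoxc4 and Hoxd3 were lower too, but the filter, which they passed only through wild-type colon, made that direction close to fixed. The counts of lower genes below include both. Of the 29 genes, 5 were higher in Apc/Tgif tumours (17.2%, against 24.8% of all genes tested) and 10 lower (34.5%, against 25.5%; 50.3% of all genes changed in either direction). In Apc tumours 4 of 29 were higher (13.8%, against 23.9%) and 8 lower (27.6%, against 25.2%; 49.1% in either direction). The share lower in Apc tumours was near the background, and that in Apc/Tgif tumours was above it, with no test of that difference. Both comparisons share the 5 wild-type libraries. Setting library totals equal moved the median of all genes by 0.15 (log2) for Apc/Tgif tumours and 0.20 for Apc tumours, and the split of all genes to 31.5% higher and 20.8% lower and to 33.4% higher and 18.5% lower.

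The clusters differed in their medians. The log2 fold change of the HoxA genes had a median of 0.67 in Apc/Tgif tumours and 0.14 in Apc tumours, both against wild-type colon. For HoxB the medians were -1.27 in Apc/Tgif tumours and -0.56 in Apc tumours, and for HoxD -2.93 in Apc/Tgif tumours and -3.39 in Apc tumours. The HoxD medians do not stand for an even fall. In each comparison 3 of the 8 HoxD genes were called lower and 5 were not called. Hoxd10 to Hoxd13 had high and low tumours in each genotype, as given below. All genes had medians of 0.00 and -0.01. Groups that did not overlap were found for 3 higher (Hoxa9, Hoxa10, Hoxa11) and 8 lower Hox genes in Apc/Tgif tumours, where 14.1% and 16.5% of all genes did not overlap. In Apc tumours they were found for 2 higher (Hoxa9, Hoxa10) and 4 lower Hox genes (Hoxb2, Hoxb13, Hoxc4, Hoxd3), where the shares of all genes were 14.0% and 15.4%. Hoxc4 and Hoxd3 were among the lower genes in both comparisons, which the filter made close to fixed.

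**Figure D2:**
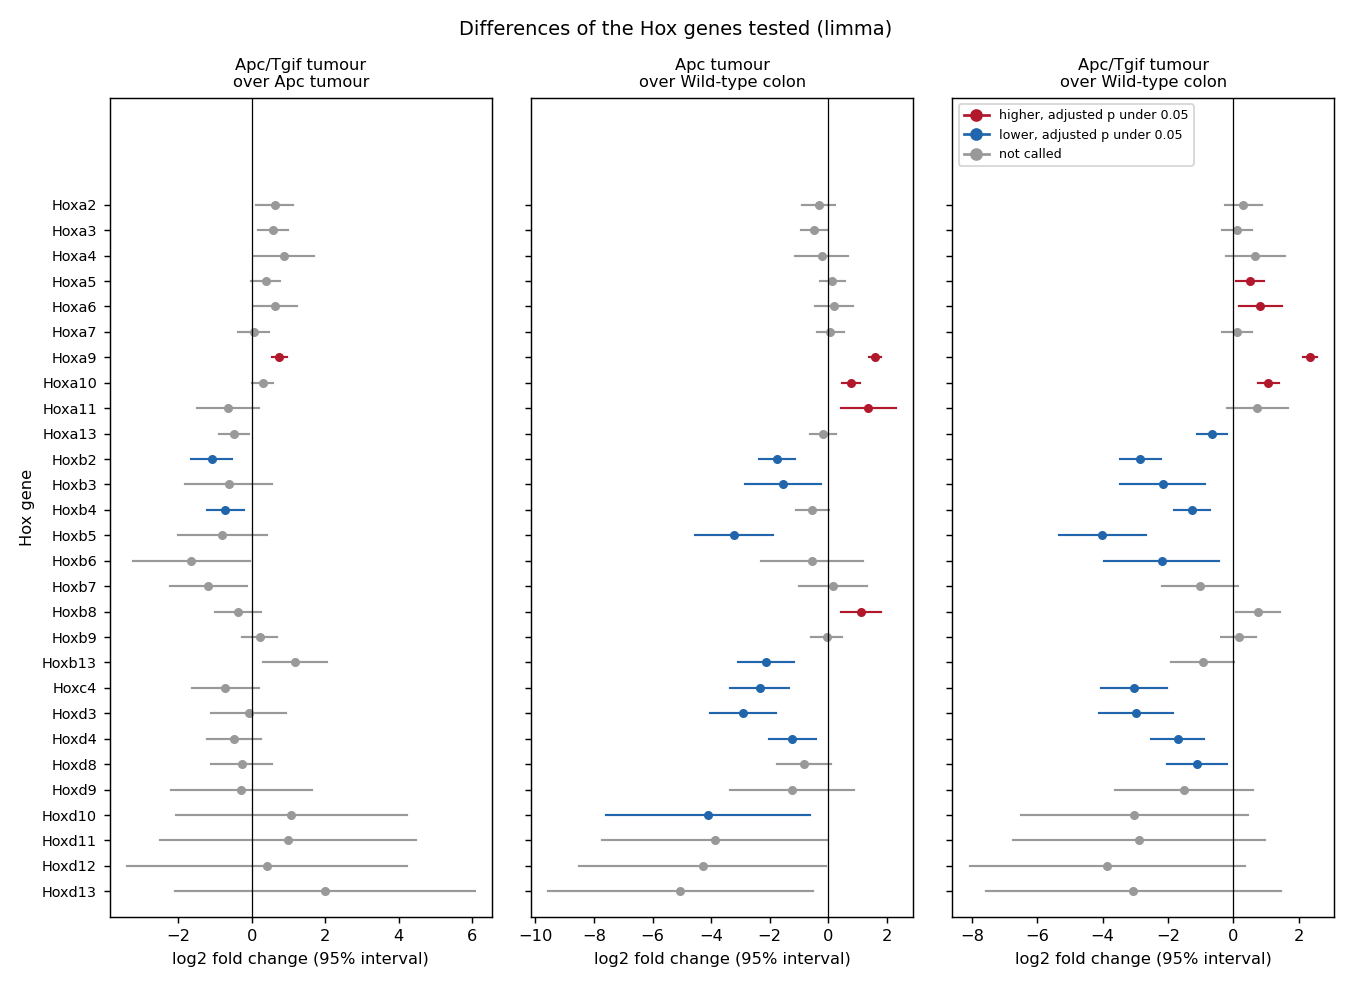
Log2 fold changes of 28 tested Hox genes on the log2(normalized count + 1) scale, as points with 95% intervals from limma, for Apc/Tgif over Apc tumours, Apc tumours over wild-type colon and Apc/Tgif tumours over wild-type colon. Red points are higher and blue points lower at an adjusted p under 0.05. Hoxa9 lies right of 0 in every panel, the HoxB points lie mostly left of 0 against wild-type colon, and the intervals of Hoxd10 to Hoxd13 are the widest.

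Among the HoxA genes, Hoxa9 was higher by 2.35 (SE 0.10, limma adjusted p = 2.26e-12) in Apc/Tgif tumours and by 1.59 (SE 0.10, limma adjusted p = 6.26e-10) in Apc tumours on the log2 scale. Hoxa10, its 5′ neighbour and a gene that patterns the uterus, had 3130.2, 4022 and 4821 normalized counts as the lowest, median and highest Apc/Tgif tumour and 2281, 3355 and 4278 in Apc tumours, against 1656 to 2031 in wild-type colon. Every tumour thus lay above every wild-type library. The log2 fold changes were 1.07 (SE 0.15, limma adjusted p = 9.1e-06) in Apc/Tgif tumours and 0.78 (SE 0.15, limma adjusted p = 0.000355) in Apc tumours. Hoxa9 and Hoxa10 passed the threshold in every alternative setting of both comparisons.

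Hoxa11, which acts in the limb and the reproductive tract, had 265, 349 and 774 normalized counts as the lowest, median and highest Apc/Tgif tumour, 252, 404 and 1709.5 in Apc tumours and 218 to 259 in wild-type colon. Apc replicates 1, 4 and 7, at 1404, 1337 and 1709.5, stood far above the other tumours. The log2 fold change was 1.37 (SE 0.45, limma adjusted p = 0.0158) in Apc tumours, and that call was lost in females alone and in males alone. In Apc/Tgif tumours it was 0.74 (SE 0.45, limma adjusted p = 0.182), although the groups did not overlap. Hoxa11os, which overlaps Hoxa11 on the other strand, averaged 2781 ± 1080 in Apc/Tgif tumours, 2288 ± 662 in Apc tumours and 3332 ± 794 in wild-type colon. No source used here states whether reads were counted by strand, so a Hox gene and an overlapping antisense gene cannot be told apart.

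Hoxa13, the most 5′ HoxA gene, which is needed for hindgut and limb ends, had 359, 484 and 643 normalized counts as the lowest, median and highest Apc/Tgif tumour, 459.8, 734 and 1091 in Apc tumours and 609 to 1064 in wild-type colon. Of the 7 Apc/Tgif tumours, 5 lay below the lowest wild-type library. The log2 fold change there was -0.65 (SE 0.21, limma adjusted p = 0.0159), a call lost without wild-type replicate 1 (adjusted p = 0.0521) and with equal library totals. In Apc tumours it was -0.18 (SE 0.21, limma adjusted p = 0.512). Hoxa13 thus went the other way from Hoxa9 and Hoxa10 in Apc/Tgif tumours.

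Hoxa5, which acts in lung and gut, had 673, 864 and 1389 normalized counts as the lowest, median and highest Apc/Tgif tumour, against 471 to 807 in wild-type colon, a log2 fold change of 0.52 (SE 0.21, limma adjusted p = 0.0416). Hoxa6 had 80.3, 112 and 243 in Apc/Tgif tumours, against 41.8 to 145 in wild-type colon, a log2 fold change of 0.83 (SE 0.31, limma adjusted p = 0.0335). The ranges overlapped for both genes. The call of Hoxa5 was lost without wild-type replicate 1, 2, 3 or 4 or Apc/Tgif replicate 1, 2 or 7 (adjusted p up to 0.112), and that of Hoxa6 without wild-type replicate 2, 3 or 4 or Apc/Tgif replicate 1, 3 or 7 (adjusted p up to 0.115). Hoxa2, Hoxa3, Hoxa4 and Hoxa7 passed in neither comparison with wild-type colon.

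Hoxb13, the most 5′ HoxB gene and the Hox gene with the highest level in colon, had 6540.4, 7739 and 8720.3 normalized counts as the lowest, median and highest Apc/Tgif tumour, and 1088, 5271 and 9351 in Apc tumours. The wild-type libraries had 13937, 13466, 13747, 16616 and 15739. Every tumour lay below every wild-type library, and the Apc/Tgif tumours lay close together, between the wild-type libraries and the low Apc tumours. Apc replicates 1, 4 and 7 had 1542, 1088 and 1279, while the other 4 Apc tumours had 5271 to 9351.

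The log2 fold change of Hoxb13 in Apc tumours was -2.12 (SE 0.46, limma adjusted p = 0.000825), a call lost in males alone. In Apc/Tgif tumours it was -0.95 (SE 0.46, limma adjusted p = 0.094), although the groups did not overlap. The fit estimates 1 spread per gene over all 19 libraries. With 2 groups in the fit, or with library quality weights, the difference passed, as it did without Apc replicate 4 (adjusted p = 0.0476), and adjusted p over all settings ran from 2.49e-06 to 0.307. Apc/Tgif tumours lay above Apc tumours by a log2 fold change of 1.17 (SE 0.41, limma adjusted p = 0.0599), and this passed without Apc replicate 5 or 6, with an adjusted p as low as 0.018. The spread of Hoxb13, as the SD of log2 values, was 0.13 in Apc/Tgif tumours, 1.34 in Apc tumours and 0.13 in wild-type colon.

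The same 3 Apc tumours that were low in Hoxb13 were the ones high in Hoxa11, which was seen in the values and not sought beforehand. Cdx2, a caudal-type factor that sets intestinal identity, stood at 3132, 3906 and 4311 normalized counts in Apc replicates 1, 4 and 7 and at 124 to 541 in the other 4. Cdx2 had 199, 509.6 and 2145 as the lowest, median and highest Apc/Tgif tumour, and in wild-type colon 1431 to 3443. Its differences did not pass (limma adjusted p = 0.0689 in Apc/Tgif tumours and 0.186 in Apc tumours, each against wild-type colon). Within Apc/Tgif tumours, Hoxb13 had no relation that passed with Hoxa13 (Pearson's r = -0.06, exact permutation p = 0.905; Spearman's rho = -0.18, p = 0.713; n = 7). The same held for Hoxb9 (r = -0.16, exact permutation p = 0.774; rho = 0.07, p = 0.906) and for the smooth muscle list (r = -0.14, exact permutation p = 0.777; rho = -0.25, p = 0.595). Without the 2 tumours farthest from the median of Hoxb13, r was -0.77, -0.75 and -0.67 for Hoxa13, Hoxb9 and the list (exact permutation p = 0.142, 0.142 and 0.225, n = 5). The 3 relations had Benjamini-Hochberg adjusted p of 0.905 for Pearson's r and 0.906 for Spearman's rho. In Apc tumours Hoxb13 fell into separate clusters, so no r is given there.

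**Figure D3:**
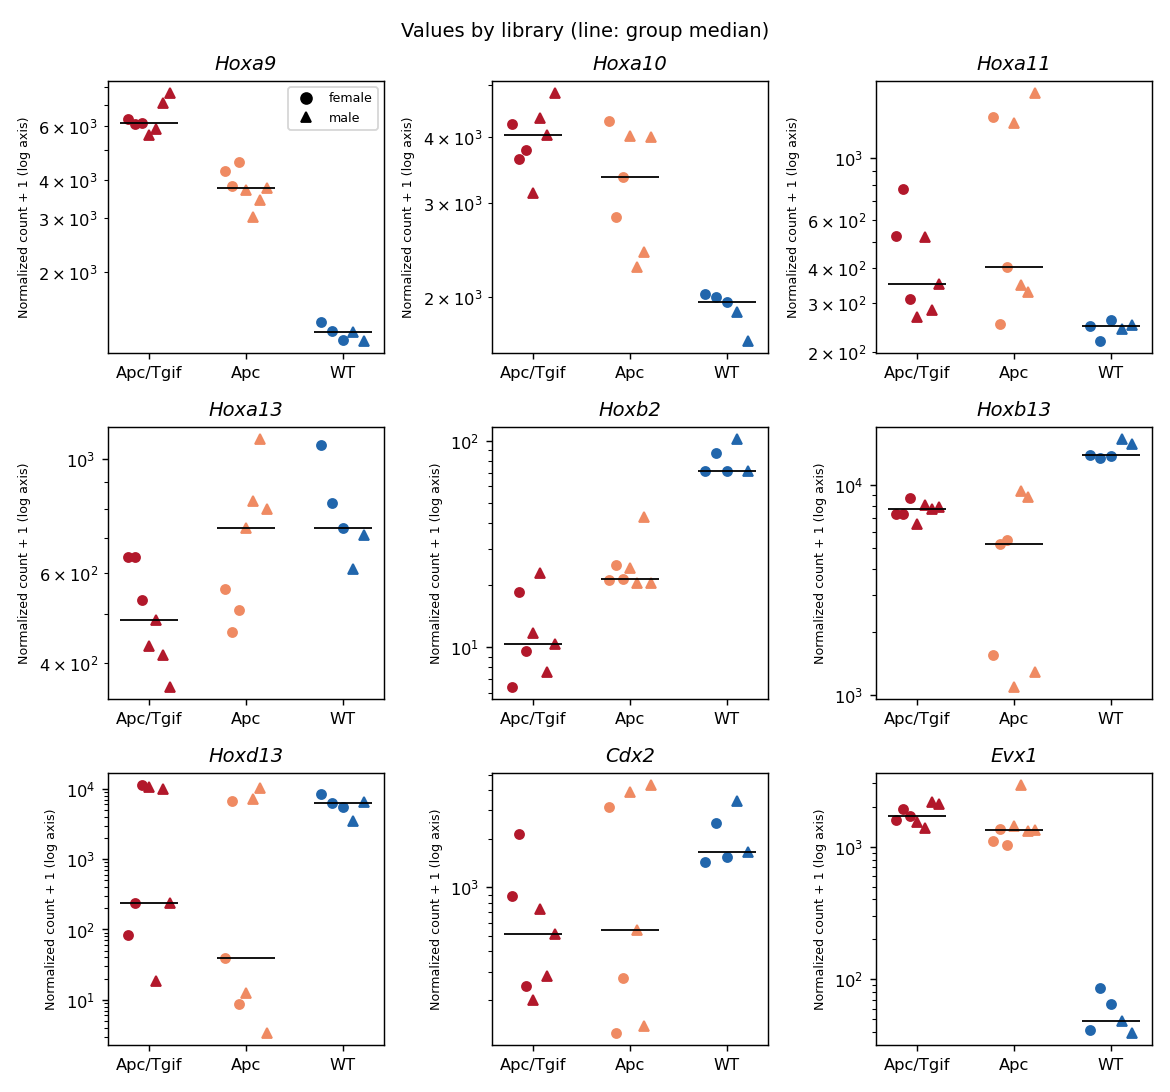
Normalized counts + 1 on a log axis of 7 Hox genes and of Cdx2 and Evx1, 1 point per library, with circles for females, triangles for males and a line at the group median, for Apc/Tgif tumours, Apc tumours and wild-type colon (WT). Hoxa9 forms 3 levels that do not overlap, Hoxb13 is tight in Apc/Tgif tumours and split in Apc tumours, and Hoxd13 is split in both tumour groups.

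Of the other HoxB genes, Hoxb2 to Hoxb6 were called lower than wild-type colon in Apc/Tgif tumours. In Apc tumours Hoxb2, Hoxb3 and Hoxb5 were. Hoxb5, which acts in the neural crest that forms the enteric nervous system, had 3.12, 6.52 and 29.9 normalized counts as the lowest, median and highest Apc/Tgif tumour and 3.41, 8.87 and 117 in Apc tumours, against 99.1 to 164 in wild-type colon. Only Apc replicate 6 reached the wild-type range. The log2 fold changes were -4.02 (SE 0.64, limma adjusted p = 2.97e-05) in Apc/Tgif tumours and -3.21 (SE 0.64, limma adjusted p = 0.000361) in Apc tumours. Hoxb5os, which overlaps Hoxb5 on the other strand, averaged 0.80 ± 0.83 in Apc/Tgif tumours, 4.66 ± 8.98 in Apc tumours and 61.9 ± 20.8 in wild-type colon.

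Hoxb2 had 70.7, 85.6, 70.5, 100.6 and 70.6 normalized counts in the wild-type libraries, above every tumour, and was lower by a log2 fold change of -2.85 (SE 0.30, limma adjusted p = 2.1e-07) in Apc/Tgif tumours and -1.75 (SE 0.30, limma adjusted p = 8.24e-05) in Apc tumours. Hoxb4 was lower in Apc/Tgif tumours by -1.27 (SE 0.27, limma adjusted p = 0.000555), with no overlap with the 63.9 to 97.7 of wild-type colon. Hoxb3 had 11.9, 22.3 and 62.6 in Apc/Tgif tumours against 89.4 to 111 in wild-type colon, a log2 fold change of -2.17 (SE 0.62, limma adjusted p = 0.00685). All 3 genes were thus below their wild-type range in every Apc/Tgif tumour. In Apc tumours Hoxb3 was called (log2 fold change -1.54, limma adjusted p = 0.0478), but the call was kept only without Apc replicate 4 or 6 or Apc/Tgif replicate 2, 3 or 7 among the 19 libraries, and adjusted p without 1 library ran from 0.00201 to 0.114.

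Apc replicate 6 stood apart from the other tumours in several HoxB genes: Hoxb3 stood at 289, Hoxb5 at 117, Hoxb6 at 210.2 and Hoxb7 at 159 normalized counts. The other 6 Apc tumours had 11.5 to 109 of Hoxb3 and 5.77 to 52.7 of Hoxb6. Apc replicate 4 came next, and among the Apc/Tgif tumours replicate 3 was highest in Hoxb3, Hoxb5, Hoxb6 and Hoxb7. Hoxb6 was called lower in Apc/Tgif tumours against wild-type colon (log2 fold change -2.20, SE 0.84, limma adjusted p = 0.0355), but the call was lost without any wild-type library or without Apc/Tgif replicate 1, 2, 4, 5 or 6 (adjusted p up to 0.0674). Hoxb8 was higher in Apc tumours (19.8, 28.9 and 52.0 against 10.5 to 20.1; log2 fold change 1.12, SE 0.33, limma adjusted p = 0.00805), a call lost in females alone. Hoxb9, next to it, averaged 1794 ± 729 in Apc/Tgif tumours, 1508 ± 523 in Apc tumours and 1507 ± 142 in wild-type colon, and passed in no comparison.

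Hoxc4, the single HoxC gene tested, had 0, 1.08 and 5.26 normalized counts as the lowest, median and highest Apc/Tgif tumour and 1.72, 2.44 and 4.25 in Apc tumours, against 10.1 to 26.3 in wild-type colon. The log2 fold changes were -3.06 (SE 0.48, limma adjusted p = 2.92e-05) in Apc/Tgif tumours and -2.34 (SE 0.48, limma adjusted p = 0.000539) in Apc tumours. Hoxd3, at the head side of HoxD, averaged 2.11 ± 1.27 in Apc/Tgif tumours and 3.41 ± 5.22 in Apc tumours, against 21.0 ± 3.74 in wild-type colon, with log2 fold changes of -2.98 (SE 0.54, limma adjusted p = 0.000124) and -2.90 (SE 0.54, limma adjusted p = 0.00019). Hoxd4 averaged 6.79 ± 2.57, 11.4 ± 8.41 and 23.3 ± 8.73 in Apc/Tgif tumours, Apc tumours and wild-type colon, with log2 fold changes of -1.71 (SE 0.39, limma adjusted p = 0.00113) in Apc/Tgif tumours and -1.22 (SE 0.39, limma adjusted p = 0.0137) in Apc tumours. Hoxd3 and Hoxd4 overlap in the annotation, so reads may be split between them. Hoxc4 and Hoxd3 passed the filter only through wild-type colon, so their lower calls in tumours were close to fixed beforehand. Hoxd8 was called in Apc/Tgif tumours (log2 fold change -1.11, SE 0.44, limma adjusted p = 0.0421), and this was lost without wild-type replicate 1, 2, 3 or 4 or Apc/Tgif replicate 1, 5 or 7 (adjusted p up to 0.107). The smooth muscle, neuron and glia lists fell in the same comparisons as these genes, as given above. Of 10 epithelial genes, 6 were lower in Apc/Tgif tumours and 5 in Apc tumours (60% and 50%, against 25.5% and 25.2% of all genes). Of 8 fibroblast genes 2 were higher and 1 lower in Apc/Tgif tumours (25% and 12.5%, against 24.8% and 25.5% of all genes). In Apc tumours 3 were higher and 1 lower (37.5% and 12.5%, against 23.9% and 25.2%). Of 4 endothelial genes 1 was higher and 0 lower in each comparison. The part of these lists was not tested.

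In a given tumour Hoxd10, Hoxd11 and Hoxd13 were either within or above the wild-type range or under 10% of its lowest value. Hoxd13, which patterns digits, genital tubercle and hindgut, had 83.7, 234, 11355, 10491, 17.7, 10089.8 and 239 normalized counts in Apc/Tgif replicates 1 to 7. In Apc replicates 1 to 7 it had 37.9, 6670.5, 7.68, 11.6, 7139.7, 10231 and 2.42. The wild-type libraries had 8441, 6282, 5463, 3548 and 6479.7. No tumour lay between 239 and 6670.5, so each was either within or above the wild-type range or more than 10 times below it. The low tumours were Apc/Tgif replicates 1, 2, 5 and 7 and Apc replicates 1, 3, 4 and 7, which is 4 of 7 in each genotype and 2 females and 2 males in each.

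Hoxd11, which patterns limb and trunk, had 14.0, 31.3, 1582, 804, 10.1, 750.2 and 17.3 normalized counts in Apc/Tgif replicates 1 to 7 and 5.66, 822, 3.88, 1.14, 1678, 1834 and 3.48 in Apc replicates 1 to 7, against 439.7 to 1064 in wild-type colon. Hoxd10 had 13, 16.1, 613, 453, 11.5, 406 and 9.35 in Apc/Tgif replicates 1 to 7 and 0.74, 383, 2.56, 2.11, 655, 918 and 3.23 in Apc replicates 1 to 7, against 308 to 672 in wild-type colon. Both genes lay under 10% of the lowest wild-type value in the same 8 tumours as Hoxd13. Hoxd12 was under that level in those 8 and in Apc replicate 2 (2.47 normalized counts), and stood at 15.1 in Apc/Tgif replicate 6, against 126 to 457 in wild-type colon. In the low Apc tumours Hoxd10, Hoxd11 and Hoxd12 were at the level of a few reads. Hoxd10 had 0.74 to 3.23 and Hoxd11 1.14 to 5.66 normalized counts there. The low Apc/Tgif tumours stood higher, with 9.35 to 16.1 of Hoxd10 and 10.1 to 31.3 of Hoxd11.

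The pattern weakened towards the head side of the cluster and ran past Hoxd13 on the other. Hoxd9 had 4.35, 30.9, 184, 114, 5.21, 97.3 and 7.01 normalized counts in Apc/Tgif replicates 1 to 7 and 14.9, 56.9, 2.56, 17.9, 129, 263 and 31.4 in Apc replicates 1 to 7, against 46.0 to 109.8 in wild-type colon. Hoxd8 had 23.4, 47.7, 63.4, 53.0, 28.0, 64.0 and 18.4 in Apc/Tgif replicates 1 to 7 and 33.6, 36.3, 13.8, 68.1, 84.8, 118 and 40.8 in Apc replicates 1 to 7, against 47.8 to 121 in wild-type colon. Only 1 tumour of each genotype was under 10% of the lowest wild-type value for Hoxd9, Apc/Tgif replicate 1 and Apc replicate 3, and none for Hoxd8. Evx2, a homeobox gene beyond Hoxd13 (chr2:74652991-74659557), had 13, 33.6, 1368, 1353, 2.09, 1094 and 7.01 in Apc/Tgif replicates 1 to 7 and 0.74, 433, 0.85, 2.11, 537, 1041 and 0 in Apc replicates 1 to 7, against 177 to 482 in wild-type colon. It was low in the tumours in which Hoxd13 was low. The genes that flank the cluster farther out were not split: Lnp had 1206 to 2558 in Apc/Tgif tumours, 721 to 1609.9 in Apc tumours and 941 to 1602 in wild-type colon, and Mtx2 had 1672 to 2435, 1889 to 2330.0 and 1656 to 2263.

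**Figure D4:**
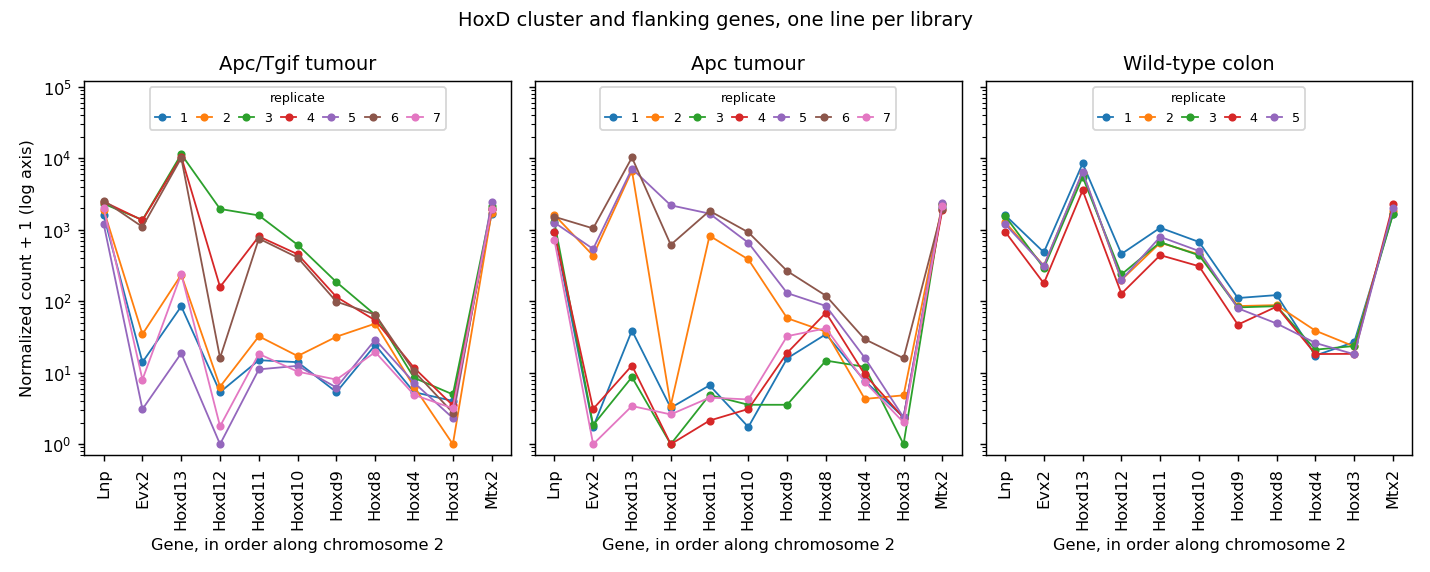
Normalized counts + 1 on a log axis for Lnp, Evx2, the tested HoxD genes and Mtx2 in their order along chromosome 2, 1 line per library and 1 panel per group, with colours for replicate numbers. In both tumour panels 4 of 7 lines drop from Evx2 to Hoxd10. Over those genes the other 3 stay near or above the wild-type lines, except at Hoxd12. There 5 of 7 tumours of each genotype lie below the lowest wild-type value. At Hoxd3 all 7 tumours of each genotype lie below it, and at Hoxd4 7 Apc/Tgif and 6 Apc tumours do. All lines meet again at Mtx2.

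A rule written after these values were seen asked which genes had at least 3 of 7 tumours under 10% of the lowest wild-type value and at least 3 of 7 at or above that value, in both genotypes. It was met by 5 of 18445 genes (0.0271%), which were Hoxd10, Hoxd11, Hoxd13, Evx2 and BC089553. Within Apc/Tgif tumours alone 0.038% of genes met it, and in Apc tumours alone 0.0705%. As the SD of log2 values, Hoxd13 had the 8th largest spread of all 18445 genes in Apc/Tgif tumours (3.82) and the 3rd largest in Apc tumours (5.18), but the 4371st in wild-type colon (0.46). Hoxd12, Hoxd11 and Hoxd10 stood at the 6th, 14th and 34th place in Apc/Tgif tumours and the 5th, 7th and 11th in Apc tumours. The median SD over the tested Hox genes was 0.57 in Apc/Tgif tumours, 0.66 in Apc tumours and 0.30 in wild-type colon, against 0.38, 0.36 and 0.28 over all genes.

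Differences of group means do not show this split. Hoxd13 had a log2 fold change of 1.98 between Apc/Tgif and Apc tumours (SE 1.95, limma adjusted p = 0.552; 95% interval -2.10 to 6.07), -3.06 between Apc/Tgif tumours and wild-type colon (SE 2.15, limma adjusted p = 0.251) and -5.05 between Apc tumours and wild-type colon (SE 2.15, limma adjusted p = 0.0598). The last difference passed without Apc replicate 2, 5 or 6 or Apc/Tgif replicate 5, with an adjusted p as low as 0.0251. Hoxd10 was called in Apc tumours against wild-type colon (log2 fold change -4.11, SE 1.66, limma adjusted p = 0.0478), but the call was lost without any wild-type library, Apc replicate 1, 3, 4 or 7 or Apc/Tgif replicate 1, 2, 4 or 6, and adjusted p without 1 library ran from 0.0177 to 0.111. Hoxd11 (limma adjusted p = 0.0891) and Hoxd12 (limma adjusted p = 0.0858) were not called there; without 1 library they passed in 3 cases each, for Hoxd11 without Apc replicate 2, 5 or 6 (adjusted p as low as 0.0372) and for Hoxd12 without Apc replicate 5 or 6 or Apc/Tgif replicate 3 (0.0182).

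Low Hoxd13 went with high Hoxa11 in both genotypes, and with low Hoxb13 in some Apc tumours. In Apc/Tgif replicates 1 to 7 Hoxa11 was 524, 774, 309, 265, 516, 282.5 and 349 normalized counts, and in Apc replicates 1 to 7 it was 1404, 252, 404, 1337, 346, 328 and 1709.5. The 4 highest Hoxa11 values of each genotype thus stood in the 4 tumours with low Hoxd13. In Apc/Tgif replicates 1 to 7 Cdx2 was 877, 2145, 245, 199, 733, 279 and 509.6, and its 4 highest values stood in the same 4 tumours. In Apc tumours Cdx2 was high in replicates 1, 4 and 7, but replicate 3, with 7.68 normalized counts of Hoxd13, had 272 of Cdx2, below the 541 of replicate 5. Apc replicate 3 also had 5469.7 normalized counts of Hoxb13, against 1088 to 1542 in replicates 1, 4 and 7. Hoxb13 in Apc/Tgif replicates 1 to 7 was 7263, 7291, 8720.3, 6540.4, 8079, 7739 and 7839.6, a narrow range over tumours with high and low Hoxd13. These libraries were picked out after their values were seen, and no test was made.

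Evx1, Halr1 and Hottip, at the borders of HoxA, had large differences. Of 7 antisense and opposite-strand Hox genes tested, 2 were higher and 2 lower in Apc/Tgif tumours than in wild-type colon (28.6% each). Apc tumours had 1 higher and 2 lower (14.3% and 28.6%). The shares of all genes were 24.8% and 25.5% in Apc/Tgif tumours and 23.9% and 25.2% in Apc tumours. Evx1, a homeobox gene beyond Hoxa13 (chr6:52313498-52318378), averaged 1769 ± 302 normalized counts in Apc/Tgif tumours and 1499 ± 643 in Apc tumours, against 55.3 ± 19.8 in wild-type colon. Its log2 fold changes were 5.01 (SE 0.24, limma adjusted p = 5.67e-12) in Apc/Tgif tumours and 4.70 (SE 0.24, limma adjusted p = 1.78e-11) in Apc tumours. Halr1, a non-coding RNA at the head-side border of HoxA (chr6:52102949-52113684), averaged 1105 ± 510 in Apc/Tgif tumours and 694 ± 307 in Apc tumours, against 14.9 ± 3.36 in wild-type colon, with log2 fold changes of 6.05 (SE 0.36, limma adjusted p = 1.35e-10) and 5.33 (SE 0.36, limma adjusted p = 1.12e-09). No tumour overlapped the wild-type libraries for either gene.

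Hottip, a non-coding RNA at the Hoxa13 end of the cluster (chr6:52262775-52267603), moved the other way. It averaged 194 ± 89.2 normalized counts in Apc/Tgif tumours, 527 ± 160 in Apc tumours and 1249 ± 250 in wild-type colon. The log2 fold changes were -1.53 for Apc/Tgif over Apc tumours (SE 0.29, limma adjusted p = 0.0014), -2.88 for Apc/Tgif tumours over colon (SE 0.32, limma adjusted p = 4.9e-07) and -1.35 for Apc tumours over colon (SE 0.32, limma adjusted p = 0.0019). Hottip and Hoxa13 were thus both called lower in Apc/Tgif tumours against wild-type colon. Of 14 genes flanking the clusters, 3 were higher in Apc/Tgif than in Apc tumours (21.4%, against 7.88% of all genes). Of the same genes, Apc/Tgif tumours had 5 above and 5 below wild-type colon (35.7% each, against 24.8% and 25.5% of all genes). Apc tumours had 3 above and 4 below (21.4% and 28.6%, against 23.9% and 25.2%), near the share of all genes.

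Of 9 Pbx, Meis and Prep genes, which encode partners of Hox proteins, 1 was higher and 1 lower in Apc/Tgif over Apc tumours. These shares (11.1% each) were near those of all genes (7.88% and 8.76%). Pknox1 was the higher gene (1407 ± 277 against 989 ± 63.7, log2 fold change 0.48, SE 0.13, limma adjusted p = 0.012). Meis2 was the lower one (98 ± 42.4 against 272 ± 85.5, log2 fold change -1.52, SE 0.23, limma adjusted p = 0.000184). Relative to wild-type colon, Apc/Tgif tumours had 1 of the 9 higher (11.1%, against 24.8% of all genes) and 5 lower (55.6%, against 25.5%). Apc tumours had 5 lower (55.6%, against 25.2%). Meis1 averaged 53.5 ± 29 in Apc/Tgif tumours, 50.6 ± 10.1 in Apc tumours and 380 ± 76.3 in wild-type colon, a fall in the same libraries in which the smooth muscle list fell. Of the Cdx genes, Cdx1 was lower in Apc/Tgif tumours (log2 fold change -1.27, SE 0.30, limma adjusted p = 0.00156) and in Apc tumours (-1.43, SE 0.30, limma adjusted p = 0.000592) than in wild-type colon, and Cdx4 was listed at 0 throughout.

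Of 23 Polycomb genes, 4 were higher (17.4%, against 7.88% of all genes) and 1 lower (4.35%, against 8.76%) in Apc/Tgif over Apc tumours. Phf19, which guides the complex that methylates histone H3, averaged 572 ± 144 normalized counts in Apc/Tgif tumours and 157 ± 45.9 in Apc tumours (log2 fold change 1.87, SE 0.22, limma adjusted p = 2.02e-05). Against wild-type colon 12 Polycomb genes were higher (52.2%, against 24.8% of all genes) and 2 lower (8.7%, against 25.5%) in Apc/Tgif tumours. In Apc tumours 11 were higher (47.8%, against 23.9%) and 3 lower (13%, against 25.2%). Their median log2 fold change was 0.37 in Apc/Tgif tumours and 0.34 in Apc tumours, where all genes had 0.00 and -0.01. Ezh2, the methylase of that complex, averaged 3340 ± 837 in Apc/Tgif tumours and 3534 ± 1030 in Apc tumours, against 1291 ± 118 in wild-type colon (limma adjusted p = 3.73e-05 and 2.24e-05). Of 8 genes of the Mll complexes, which oppose Polycomb at Hox genes, 0 passed limma's adjusted threshold in Apc/Tgif over Apc tumours, and 1, Dpy30, had an unadjusted p under 0.05. Relative to wild-type colon, Apc/Tgif tumours had 2 of them higher (25%), and Apc tumours 3 higher (37.5%) and 1 lower (12.5%), against the shares of all genes just given. Of 3 further genes of the distal colon, 1 was lower and 0 higher in Apc/Tgif over Apc tumours (33.3% lower, against 8.76% of all genes). This was Cldn8 (837 ± 214 against 1774 ± 561, log2 fold change -1.05, SE 0.25, limma adjusted p = 0.00698). Against wild-type colon 2 of the 3 were lower in Apc/Tgif tumours (66.7%, against 25.5% of all genes) and 1 in Apc tumours (33.3%, against 25.2%).

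The effect of genotype between the tumours differed between males and females for 4 of 29 Hox genes by limma, Hoxa13, Hoxb8, Hoxb9 and Hoxa7. This was a smaller share than the 23.6% of all genes that differed. For the differences from wild-type colon, the sex difference passed the adjusted threshold for 0 of 29 in Apc/Tgif tumours (3.4% of all genes). In Apc tumours it passed for 0 of 29 (0.0108% of all genes). At an unadjusted limma p under 0.05 there were 2 of 29 in Apc/Tgif tumours and 3 of 29 in Apc tumours. The share of all genes at that unadjusted threshold is not given here. Between the tumours the effect was the lower one in males for all 4. Hoxa13 had a log2 fold change of -1.02 in males and 0.25 in females.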

How the data were processed

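Colon and colon tumour RNA of 19 mice was compared, 1 library per mouse, so p-values measure the spread between animals. The deposited values are a signal: counts that the authors scaled library by library. Salmon, DESeq2 and the names GRCm38 and mm10 are given per the submitters' processing notes, and neither versions, annotation nor strand setting is stated there (not given in the sources used here). Most low values, 81.9% to 84.6% per library, lay within 0.1 of a step of a whole multiple of the worth of 1 read. This is too few to recover whole reads, and no count model was used. The steps correspond to about 28800000 to 49400000 counts per library, so a normalized count of 10 stands for roughly 10 reads and values near it are imprecise.

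Genes with 10 normalized counts in at least 5 libraries (18445) were tested on the log2(normalized count + 1) scale by limma 3.58.1 (R 4.3.3), with terms for group and sex, trended robust moderation and Benjamini-Hochberg adjustment over all genes. Every adjusted p of a gene comes from limma, tests were two-sided, and fold changes on this scale understate those of low genes. Adjusted p of the correlations are Benjamini-Hochberg values of the exact permutation p. The fit was tested on simulated data. TMM (trimmed mean of M values) factors were computed from their published definition. Alternatives were other filters, pseudocounts, scalings and fits, each sex alone, and leaving out each library.

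By the naming rule any Hox gene could be named. Of other lists, up to 4 genes with the smallest p were named, and Evx2, Lnp, Mtx2, the overlapping antisense genes, Cdx4 and Cdx2 were named for their place beside Hox genes. Members and lists were chosen with earlier results of these data known. Positions are from GENCODE for GRCm38 and promoter windows from RefSeq. Prac1 was not analysed here. Counts of Hox genes include 1 that is not reported here, and the figures leave it out.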

Additional observations from a re-analysis of the deposited data

Results flagged for a closer look

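In 87 sets of 7 or 5 values of a Hox gene in 1 group, 3 held a library far from the others, and chance gives about 1 in 20. Hoxa4 stood at 369.3 normalized counts in Apc/Tgif replicate 2, where the other 6 Apc/Tgif tumours had 29.3 to 85.5. Hoxb5 stood at 29.91 in Apc/Tgif replicate 3, where the other 6 had 3.12 to 8.06. Hoxb2 stood at 41.66 in Apc replicate 6, where the other 6 Apc tumours had 19.4 to 23.9.

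The log2 difference of Apc/Tgif over Apc tumours depended on sex for 4 of 29 Hox genes, by the limma test of the effect in males minus that in females. This was a smaller share than the 23.6% of all genes. Hoxa13 gave -1.27 (SE 0.24, limma adjusted p = 0.00185), Hoxb8 -1.69 (SE 0.47, limma adjusted p = 0.0165), Hoxb9 -1.15 (SE 0.38, limma adjusted p = 0.0379) and Hoxa7 -1.0 (SE 0.33, limma adjusted p = 0.0387). The log2 difference of Hoxb8 was -1.10 in males and 0.60 in females, that of Hoxb9 -0.28 and 0.88, and that of Hoxa7 -0.37 and 0.63. Each sex of a tumour group held 3 or 4 mice.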

How the results depend on the processing

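No paired analysis was possible because the library numbers run once through all samples and no number is shared between groups. Of the calls of single Hox genes under the alternatives, 2565 stayed on their side of the threshold, 139 were lost and 59 gained, and none changed sign while called. The cause of each change was not tested. In Apc/Tgif over Apc tumours the count of higher genes, 2 in the report, was 1 without a filter, with equal library totals, with 2 groups in the fit or in males alone, and 4 with quantile normalization or in females alone. The count of lower genes, 2 in the report, was 1 without a filter, with quantile normalization, with 2 groups in the fit or in females alone. In Apc tumours over wild-type colon, 2 genes were higher in females alone (4 in the report), and 5 were lower with a filter of 50, 13 with library quality weights and 2 in males alone (8 in the report). Between Apc/Tgif tumours and wild-type colon, 3 genes were higher with library quality weights or in males alone (5 in the report), and 6 were lower with a filter of 50 or in males alone (10 in the report). Leaving out 1 library gave 1 to 4 higher and 1 to 4 lower genes in Apc/Tgif over Apc tumours, 4 to 4 higher and 6 to 12 lower in Apc tumours over wild-type colon, and 3 to 6 higher and 7 to 12 lower in Apc/Tgif tumours against wild-type colon. With equal library totals the correlations of Hoxb13 in Apc/Tgif tumours changed sign to r = 0.086 with Hoxa13 (exact permutation p = 0.839), 0.281 with Hoxb9 (exact permutation p = 0.572) and 0.004 with the smooth muscle list (exact permutation p = 0.993). Depth limits the genes under about 30 normalized counts, such as Hoxc4, Hoxd3 and Hoxd4, and the groups of 5 to 7 animals limit the HoxD tests.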
